A study of Homo sapiens with 5 samples.

Results

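Cells sense their cholesterol through a small set of endoplasmic reticulum proteins, and 8 genes of this sensing system and of LDL receptor turnover are described here in fluvastatin-treated breast cancer cells. They are INSIG1, INSIG2, SCAP, SREBF1, SREBF2, STARD4, TMEM97 and MYLIP. The members were taken by gene symbol: all 12 probes annotated to them among the 47231 probes of the array were examined, and 10 probes, of 7 genes, passed the rule of a detection p under 0.05 on at least 2 independent arrays. STARD4 and 1 of the 3 SREBF1 probes did not pass it and were not tested. The array names 20046 genes in all, of which 12080 were tested by this rule.

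The samples were MDA-MB-231 cells, an established human line described in the labels as basal breast cancer cells without estrogen receptor. All groups were grown in medium with 10% fetal bovine serum, and received either sterile water or 10 µM fluvastatin for 24 h. The labels list 3 control and 2 fluvastatin samples, but the deposited control replicate 2 equalled the mean of control replicates 1 and 3 in all 47231 probes, so 2 control arrays were compared with 2 fluvastatin arrays. The labels do not say whether the arrays came from separate cultures, so p-values measure the spread between these samples, which may be technical, in 1 cell line at 1 dose and 1 time.

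Statins block the mevalonate pathway, which supplies the precursors of cholesterol. When sterols are plentiful, the INSIG proteins hold the escort protein SCAP, and with it the SREBP transcription factors, in the endoplasmic reticulum. When sterols fall, SCAP carries SREBP in COPII vesicles to the Golgi, where proteases release the active factor, which turns on genes of sterol and fatty acid synthesis and of LDL uptake. A second arm runs through the LXR receptors, which oxysterols activate and which induce MYLIP, also called IDOL, a ubiquitin ligase that marks the LDL receptor for degradation.

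The arrays detected 43.0% to 46.9% of their probes, with median intensities of 72.7 to 81.7. Across the tested probes the controls correlated with r = 0.994 and the fluvastatin arrays with r = 0.982 (a correlation across probes, which are not independent replicates). VIM, CD44, CAV1, CAV2 and MSN, which mark basal and mesenchymal breast lines, were detected on all 4 arrays. ESR1, PGR, CDH1 and FOXA1 were detected on none, while the epithelial marker EPCAM was detected on all 4. Of 6 markers of leukocytes, red cells and fibroblasts, CD14 was detected on all 4 arrays, COL1A1 on 2, and PTPRC, CD3E, HBB and COL3A1 on none.

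The regulatory windows of 4 members are shown because SREBP acts on sequences near the start of its targets. Showing a window does not mark its gene as an SREBP target. Each window runs 5′ to 3′ on the gene's strand from 250 bases before to 50 bases after the annotated start (RefSeq, GRCh38.p14), and positions are counted from 0 at that start. Capitals mark the E-box form of the SREBP site (ATCACGTGA, read on either strand) in INSIG1, the core of the sterol regulatory element (TCACNCCAC) in SREBF2, and CCAAT boxes, the letters bound by the SREBP partner NF-Y, in TMEM97 and MYLIP.
INSIG1, chr7:155297628-155297927, plus strand: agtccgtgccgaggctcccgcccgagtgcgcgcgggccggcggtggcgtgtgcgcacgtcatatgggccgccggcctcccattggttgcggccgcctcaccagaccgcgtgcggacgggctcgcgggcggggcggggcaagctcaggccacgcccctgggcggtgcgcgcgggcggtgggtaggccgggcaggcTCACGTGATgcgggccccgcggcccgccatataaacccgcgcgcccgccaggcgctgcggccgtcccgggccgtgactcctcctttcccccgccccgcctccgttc
SREBF2, chr22:41832855-41833154, plus strand: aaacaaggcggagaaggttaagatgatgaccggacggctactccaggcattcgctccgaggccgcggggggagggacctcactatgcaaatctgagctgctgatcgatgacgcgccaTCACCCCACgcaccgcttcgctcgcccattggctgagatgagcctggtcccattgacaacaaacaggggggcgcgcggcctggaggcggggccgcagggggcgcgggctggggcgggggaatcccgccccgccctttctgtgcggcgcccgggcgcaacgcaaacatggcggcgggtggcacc
TMEM97, chr17:28318950-28319249, plus strand: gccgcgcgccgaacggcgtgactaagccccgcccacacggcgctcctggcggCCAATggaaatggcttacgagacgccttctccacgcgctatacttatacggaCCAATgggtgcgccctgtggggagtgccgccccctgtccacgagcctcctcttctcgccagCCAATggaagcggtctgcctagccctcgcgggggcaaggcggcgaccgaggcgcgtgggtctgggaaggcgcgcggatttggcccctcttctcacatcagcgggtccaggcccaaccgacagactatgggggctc
MYLIP, chr6:16128836-16129135, plus strand: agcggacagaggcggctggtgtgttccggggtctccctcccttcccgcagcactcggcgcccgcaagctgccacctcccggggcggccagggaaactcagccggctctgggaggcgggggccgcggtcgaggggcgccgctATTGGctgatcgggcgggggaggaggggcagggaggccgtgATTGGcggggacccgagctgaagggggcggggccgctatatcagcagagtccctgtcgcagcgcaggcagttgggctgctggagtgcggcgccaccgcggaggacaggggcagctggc

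Windows of all 8 members were in the table, with 2 for INSIG2. The E-box form began at position -56 in INSIG1 on the opposite strand and was present in 0.268% of 35116 windows of this length over all genes. The sterol regulatory core began at position -133 in SREBF2 and was present in 1.13% of the windows. CCAAT on either strand was present in 34.6% of windows and in those of INSIG1, SREBF2, STARD4, TMEM97 and MYLIP. TMEM97 held 3 such boxes, and 3 or more were present in 3.26% of the windows. At least 2, as in MYLIP, were present in 10.8%. Neither TMEM97 nor MYLIP held the core or the E-box form. The GC box GGGCGG occurred in all 8 genes and in 45.0% of windows. The LXR element, read as a pair of AGGTCA copies with 4 bases between them on either strand, occurred in 0 members and in 0.0199% of windows. A form this rare would be missing from nearly any 8 genes, so its absence says nothing about LXR control of the members. Of 15 listed SREBP2 target enzymes with a window in the table, 0 held the core and 0 the E-box form, while 13 held CCAAT. These matches describe letters only, and no binding was measured.

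The study compared gene expression after fluvastatin with that of control cells given sterile water. Taking each gene by its brightest tested probe, INSIG1 rose and MYLIP and TMEM97 fell, while INSIG2, SREBF1, SREBF2 and SCAP did not pass the test (limma, Benjamini-Hochberg adjusted p under 0.05 over 21986 probes). TMEM97 is counted by that probe alone: its second probe lay the other way without passing, and the mean of both was -0.18 (limma adjusted p = 0.426). Thus 3 of 7 tested genes changed, against 20.1% of the 12080 genes tested, of which 10.5% rose and 9.65% fell. By probe, 5 of 10 changed, 3 higher and 2 lower, against 16.9% of all tested probes, of which 8.64% were higher and 8.29% lower. The median log2 fold change of the 7 genes was 0.15, and that of all tested genes was 0.013. The groups did not overlap in 9 of the 10 probes, but neither did they in 64.7% of all tested probes.

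**Figure D1:**
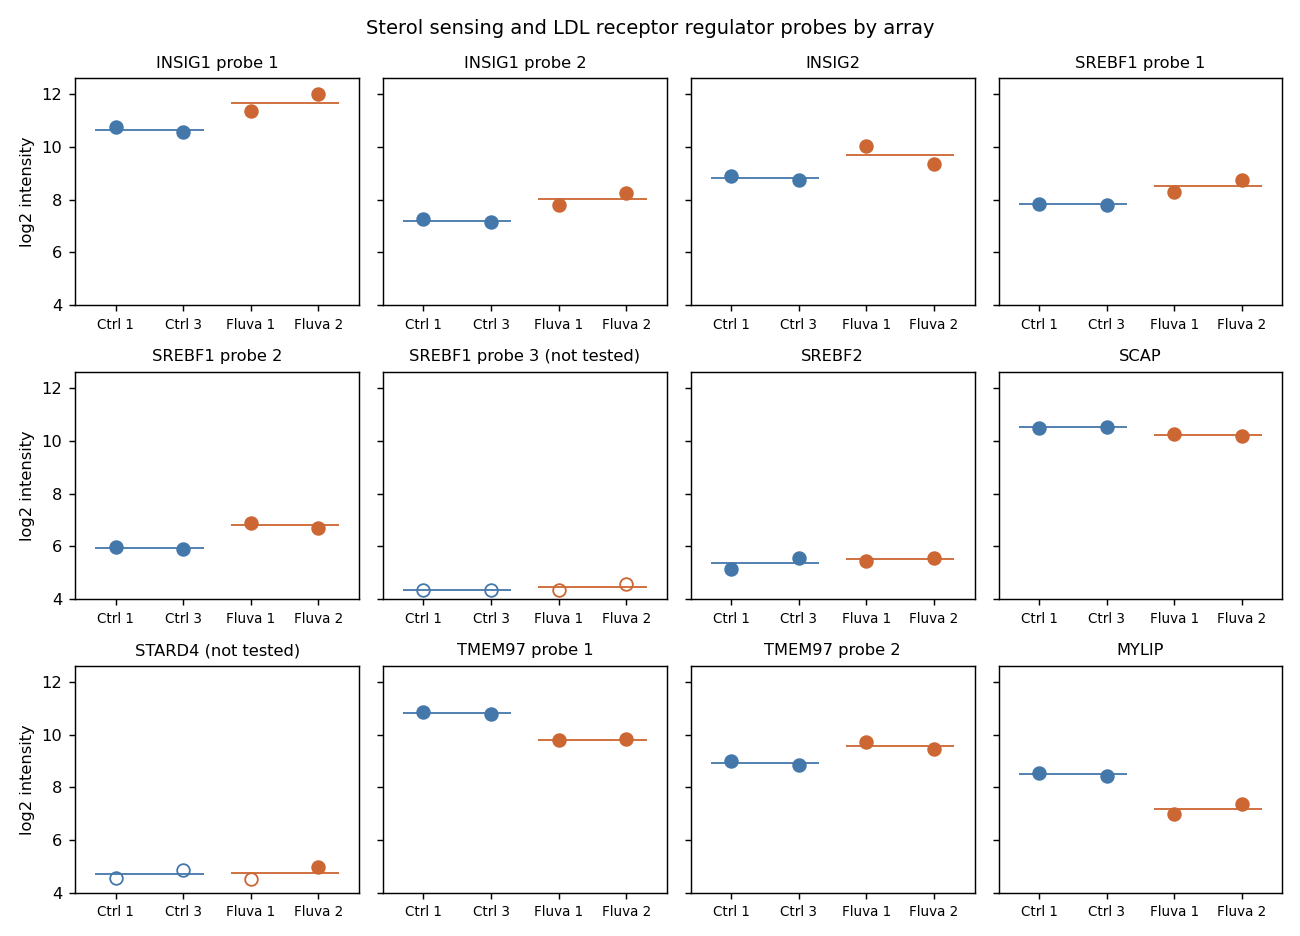
Normalized log2 intensity of each of the 12 member probes on control arrays 1 and 3 (blue) and fluvastatin arrays 1 and 2 (orange); filled points were detected, open points were not, and lines are group means (n = 2 each). INSIG1 lies higher and MYLIP lower on both fluvastatin arrays, and the TMEM97 probes move in opposite directions.

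INSIG1 encodes the retention protein that is itself a direct SREBP target. Its brighter probe, ILMN_1793474, read 10.75 and 10.57 on the control arrays and 11.36 and 11.999 on the fluvastatin arrays (normalized log2 intensity). Both fluvastatin arrays were above both controls, and the fluvastatin arrays lay further apart than the controls did. The deposited intensities were 1817 and 1194 in controls and 3098 and 4519 with fluvastatin. The probe rose by a log2 fold change of 1.02 ± 0.25 (SE; 95% interval 0.41 to 1.63; adjusted p = 0.0444 by limma), which is 2.02-fold. In these bulk samples a change in the share of cells and a change in RNA per cell cannot be told apart. The second probe, ILMN_1686989, read 7.26 and 7.17 in controls and 7.82 and 8.25 with fluvastatin, and rose by 0.82 ± 0.20 (adjusted p = 0.0443). Fluvastatin replicate 2 was the higher array for both INSIG1 probes, at 1.34 and 1.03 above the control mean, against 0.70 and 0.60 for replicate 1.

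INSIG2 encodes the paralog with the same retention role. Its probe, ILMN_1676629, read 8.90 and 8.75 in controls and 10.04 and 9.37 with fluvastatin. Both fluvastatin arrays were above both controls, but here replicate 1 was the higher. The log2 difference of 0.88 ± 0.25 (95% interval 0.26 to 1.51) did not pass after adjustment (adjusted p = 0.0659). INSIG2 lay 1.22 above the control mean in fluvastatin replicate 1 and 0.55 in replicate 2, the reverse of the order seen for INSIG1.

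SREBF1 encodes the SREBP1 isoforms, which act mainly on fatty acid synthesis, and in mouse liver LXR induces it. The brighter probe, ILMN_1663035, read 7.84 and 7.81 in controls and 8.29 and 8.73 with fluvastatin, a log2 difference of 0.69 ± 0.20 that did not pass (adjusted p = 0.0684). The dimmer probe, ILMN_2328986, which is annotated to another RefSeq transcript, read 5.98 and 5.89 in controls and 6.89 and 6.69 with fluvastatin and rose by 0.85 ± 0.16 (adjusted p = 0.0254). Both probes were higher on both fluvastatin arrays, and the gap to the control mean was 0.46 and 0.91 in replicates 1 and 2 for the brighter probe and 0.95 and 0.75 for the dimmer. The gene did not count as changed because the brightest probe represents it, but the mean of both tested probes passed, at 0.77 ± 0.15 (adjusted p = 0.0260). The third probe, ILMN_1695378, was detected on 0 of 4 arrays, with intensities of 55.7 to 76.4.

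SREBF2 encodes SREBP2, the main activator of cholesterol synthesis and LDL uptake genes. Its only probe, ILMN_2217661, was dim: the deposited intensities were 83.2 and 86.9 in controls and 98.5 and 106.5 with fluvastatin, and the normalized log2 values were 5.16, 5.57, 5.45 and 5.57 in the same order. The groups overlapped after normalization. The log2 difference was 0.15 ± 0.20 (95% interval -0.34 to 0.64; adjusted p = 0.629), and without control replicate 1 it was -0.061. The interval leaves room for a change of over 1.5-fold.

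SREBF2 and SREBF1 each enclose a microRNA gene, and the mature forms are shown because they share a seed (bases 2 to 8, in capitals) that is known to target sterol export genes.
hsa-miR-33a-5p, chr22:41900949-41900969, plus strand: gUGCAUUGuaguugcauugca
hsa-miR-33b-5p, chr17:17813897-17813916, minus strand: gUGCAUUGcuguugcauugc
Both lie within the annotated span of the host gene in RefSeq (GRCh38.p14). The array probe of each precursor was detected on 0 of 4 arrays, with lowest detection p-values of 0.156 for MIR33A and 0.374 for MIR33B, so no level is given for either.

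SCAP encodes the escort protein that carries the sterol-sensing domain. Its probe, ILMN_1677534, read 10.50 and 10.52 in controls and 10.26 and 10.19 with fluvastatin. The fluvastatin arrays were both below the controls by a small margin, with a log2 difference of -0.29 ± 0.15 (95% interval -0.66 to 0.09; adjusted p = 0.232). The deposited intensities, before scaling between arrays, were 1536 and 1153 in controls and 1479 and 1283 with fluvastatin and overlapped.

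STARD4 encodes a soluble carrier that moves cholesterol between membranes and is a known SREBP2 target. Its probe, ILMN_1716224, was detected on 1 of 4 arrays, fluvastatin replicate 2. The deposited intensities were 69.6 and 75.0 in controls and 65.0 and 88.2 with fluvastatin, so the fluvastatin arrays lay on either side of the controls. No fold change is given at this signal.

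**Figure D2:**
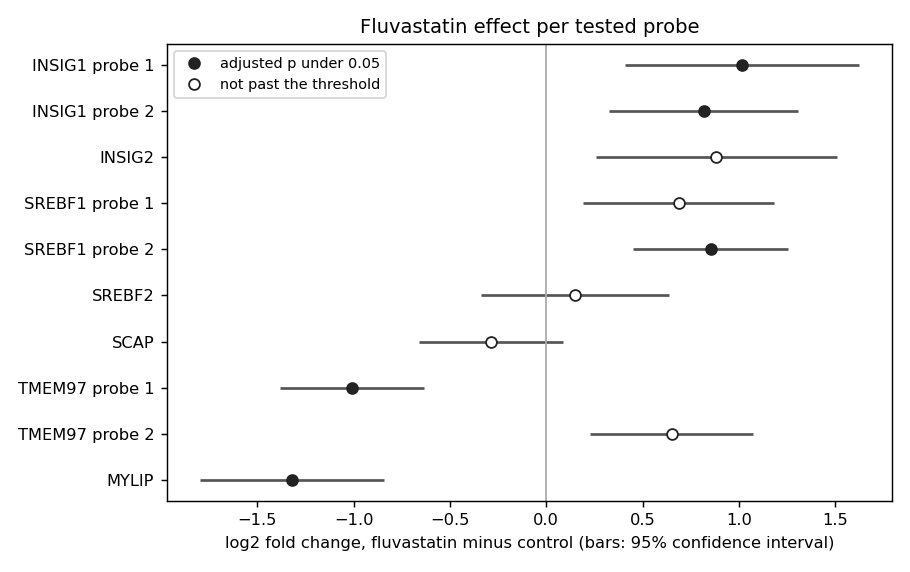
Log2 fold change of each tested probe, fluvastatin minus control (2 arrays each), with its 95% confidence interval from limma, not adjusted over probes. Filled points passed an adjusted p of 0.05: both INSIG1 probes and the dimmer SREBF1 probe above 0, the brighter TMEM97 probe and MYLIP below 0.

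TMEM97 encodes the sigma-2 receptor, a sterol-regulated membrane protein that binds the cholesterol transporter NPC1, and it is known as an SREBP target. Its probes gave opposite answers. The brighter probe, ILMN_1710962, read 10.85 and 10.79 in controls and 9.79 and 9.82 with fluvastatin, with replicates close to each other in both groups. It fell by 1.01 ± 0.15 on the log2 scale (95% interval -1.38 to -0.64; adjusted p = 0.0154). The other probe, ILMN_1753890, read 9.0045 and 8.86 in controls and 9.70 and 9.47 with fluvastatin, a log2 difference of 0.65 ± 0.17 in the other direction (95% interval 0.23 to 1.07) that just missed the threshold (adjusted p = 0.0535). The opposite directions were already present in the deposited intensities, which were 1930 and 1371 in controls against 1107 and 1007 with fluvastatin for the first probe and 563.7 and 390.3 against 1044 and 807.4 for the second.

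Within each array, the first TMEM97 probe stood above the second by 1.84 and 1.92 log2 units in controls and by 0.090 and 0.35 with fluvastatin. This gap differed by -1.66 between the groups (exact two-sided permutation test, p = 0.333, the smallest that 2 arrays against 2 can give). The 2 tested INSIG1 probes differed between the groups by 0.20 in the same measure and the 2 tested SREBF1 probes by -0.17 (exact permutation p = 0.333 and 1). The platform annotation gives both TMEM97 probes the same transcript, and RefSeq lists 1 transcript for the gene. The 3′ end of TMEM97 (chr17:28319200-28328685, GRCh38.p14) shares 360 bases with IFT20, whose own probe read 8.37 and 8.53 in controls and 8.35 and 8.72 with fluvastatin (log2 difference 0.08 ± 0.19, adjusted p = 0.794). The part that probe position plays was not tested. A direction for TMEM97 therefore holds for a probe and not for the gene. The mean of both probes was at -0.18 ± 0.15 (adjusted p = 0.426).

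MYLIP encodes the LDL receptor ubiquitin ligase and is a textbook LXR target. Its probe, ILMN_1656111, read 8.55 and 8.45 in controls and 6.98 and 7.38 with fluvastatin. Both fluvastatin arrays were well below both controls, and the deposited intensities were 421.8 and 301.5 against 202.6 and 234.6. The probe fell by 1.32 ± 0.19 on the log2 scale (95% interval -1.80 to -0.84; adjusted p = 0.0150), which is 2.50-fold lower. The fall was 1.52 below the control mean in fluvastatin replicate 1 and 1.12 in replicate 2 on the log2 scale.

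The 5 probe calls among the members all lost significance when either control array was left out, with adjusted p of 0.0853 (MYLIP, without control replicate 3) to 0.251 (second INSIG1 probe, without control replicate 3), while the log2 fold changes stayed between 0.78 and 1.11 for the INSIG1 probes and the dimmer SREBF1 probe, -1.04 and -0.98 for TMEM97 and -1.37 and -1.26 for MYLIP. Without a filter on dim probes, INSIG1 did not pass (adjusted p = 0.0928 and 0.0748 for its probes).

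**Figure D3:**
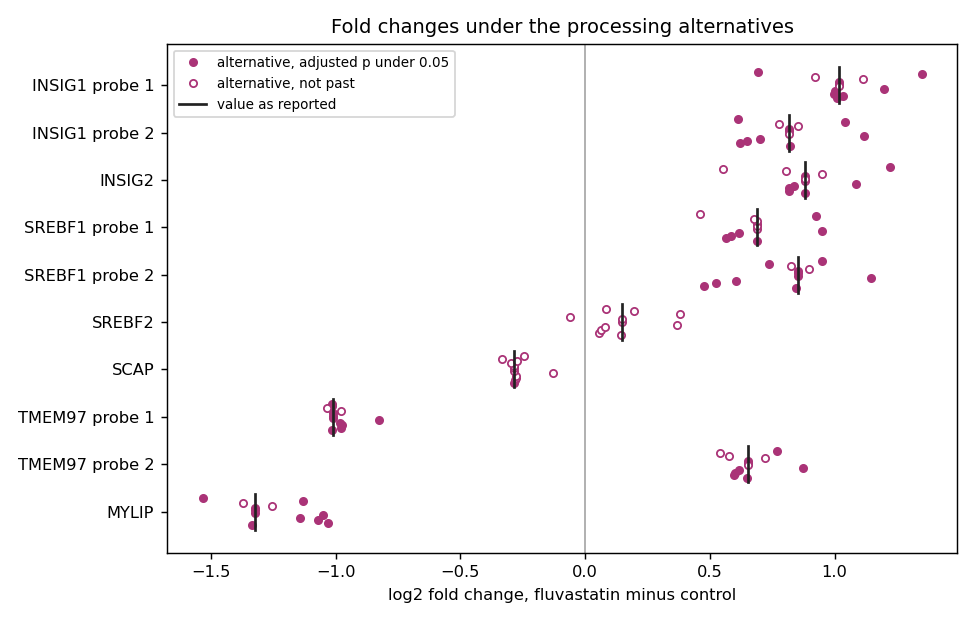
Log2 fold change of each tested probe as reported (black line) and under each processing alternative (points, filled where adjusted p was under 0.05). The INSIG1 and SREBF1 probes and INSIG2 stay above 0 and TMEM97 probe 1 and MYLIP below 0 in each of 12 alternatives, while SREBF2 falls on both sides.

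Genes with the most similar profile were sought for each changed member among 11752 genes, as the root mean square difference between centred log2 values over the 4 arrays. The nearest genes to INSIG1 were NEDD9 (0.035), H2BC5 (0.047) and TMEM150A (0.052). For MYLIP they were EXOSC3 (0.043), FANCI (0.044) and NOP58 (0.047), and for the brighter TMEM97 probe PKMYT1 (0.014), TMEM64 (0.020) and NR2C2AP (0.021). Profiles within 0.1 log2 were found for 16 genes with INSIG1, 55 with MYLIP and 192 with TMEM97. Over 4 arrays, closeness means little more than a similar fold change and similar gaps between replicates. Close matches are therefore likely among so many genes, and shared regulation was not tested. NEDD9 itself did not pass (adjusted p = 0.0570 by limma), while the other named neighbours did.

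The genes that act on the sensing complex were described next, from lists that leave out the members. Counts are read against the 20.1% of all tested genes that passed, 10.5% higher and 9.65% lower. Of 18 listed genes of SREBP activation and turnover 14 were tested, of which 1 rose, 2 fell and 11 did not pass, with a median log2 fold change of -0.25. PAQR3, which anchors the SCAP and SREBP complex at the Golgi, read 8.85 and 8.70 in controls and 7.61 and 7.95 with fluvastatin and fell by 1.00 ± 0.18 (adjusted p = 0.0243). FBXW7, the substrate adaptor of the ubiquitin ligase that removes nuclear SREBP, fell by 0.79 ± 0.18 (adjusted p = 0.0400), and RNF145, an endoplasmic reticulum ubiquitin ligase, rose by 0.66 ± 0.15 (adjusted p = 0.0408). ERLIN1, which binds SREBP and SCAP and INSIG at the membrane, was at -0.54 (adjusted p = 0.0730). The proteases that cut SREBP in the Golgi did not pass, with MBTPS1 at 0.50 (adjusted p = 0.0787) and MBTPS2 at -0.22 (adjusted p = 0.376). Of 10 tested genes of the COPII coat, among 11 listed, SAR1B, the GTPase that starts coat assembly, fell by 0.71 ± 0.17 (adjusted p = 0.0418), and 9 did not pass.

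Among SREBP2 target enzymes of sterol synthesis 7 of 17 tested genes (19 listed) rose, 0 fell and 10 did not pass, and the median log2 fold change was 0.67. HMGCS1, which makes HMG-CoA, read 8.69 in controls and 10.56 with fluvastatin on average. It and LSS, MVK and SQLE had the smallest p of the list, and NSDHL, MSMO1 and PMVK were the other genes that rose. FDPS and ACAT2 were the genes below 0, at -0.15 and -0.14, and did not pass. Of 13 tested SREBP1 targets of fatty acid synthesis, among 14 listed, the desaturase SCD (1.49 ± 0.17) and the acetyl-CoA synthetase ACSS2 (0.85 ± 0.15) rose, the acyltransferase GPAM fell by 0.67 ± 0.16, and 10 did not pass. Among those, LPIN1 was at 0.72 (adjusted p = 0.0526) and FASN at -0.64 (adjusted p = 0.0864).

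Of 9 tested LXR and RXR receptors and LXR targets (11 listed, MYLIP and SREBF1 left out), 1 rose, 0 fell and 8 did not pass, with a median of 0.32. The one that rose was PLTP, the plasma phospholipid transfer protein, by 1.13 ± 0.17 from a dim control level of 5.14 (adjusted p = 0.0152). NR1H3, which encodes LXR-alpha, was at 0.56 (adjusted p = 0.0599), while the cholesterol exporters ABCA1 and ABCG1 were at -0.20 and -0.35 and did not pass. The groups of ABCA1 overlapped. Of the 9 genes 7 lay above 0, among them RXRB (0.35) and SMPDL3A (0.48), which did not pass either. MYLIP, at -1.32, lay below all 9. The difference between MYLIP and these genes was not tested.

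In the LDL receptor family and its adaptors 2 of 12 tested genes (16 listed) rose, 0 fell and 10 did not pass, with a median of 0.30. LRP1, the large endocytic receptor, rose by 1.25 ± 0.21 from a control level of 5.30 (adjusted p = 0.0200). VLDLR, itself a MYLIP substrate, rose by 1.43 ± 0.28 (adjusted p = 0.0281), and LRP8, another substrate, was at -0.55 (adjusted p = 0.0606). Among 13 tested START domain, NPC and other sterol carriers (17 listed) 3 rose, 1 fell and 9 did not pass. STARD10 (0.90 ± 0.19), OSBPL2 (0.69 ± 0.16) and OSBPL1A (0.65 ± 0.16) rose, and STARD13 fell by 0.79 ± 0.16. The TMEM97 partner NPC1 was at 0.35 (adjusted p = 0.164). The counts of these 7 lists are read against the same 10.5% of genes higher and 9.65% lower, and no test of a list was made. Against 20.1% of all tested genes, 21.4% of the SREBP activation list and 23.1% of the SREBP1 targets passed, which is near that share. The LDL receptor family (16.7%), the LXR list (11.1%) and the COPII coat (10%) lay below it, on 2, 1 and 1 genes. The sterol carriers (30.8%) and the SREBP2 target enzymes (41.2%) lay above it. These shares depended on the processing. With the authors' values 4 of 12 LDL receptor family, 2 of 9 LXR and 1 of 10 COPII genes passed. SREBP activation then had 6 of 14, SREBP1 targets 5 of 13, sterol carriers 7 of 13 and SREBP2 enzymes 11 of 17. Of all tested probes 22.1% passed there, against 16.9% as reported. With median scaling in place of quantile normalization, which moved the median of all tested probes to 0.19, 25 of the 88 genes tested over the lists passed as higher and 0 as lower, so the falls of list genes named above were not called there. With the mean of all kept probes of a gene, 0 COPII genes passed, and of the SREBP1 targets 3 passed as higher and 0 as lower. SREBP activation then had 2 higher and 1 lower, and the sterol carriers 3 higher and 3 lower. Without a filter on dim probes 0 COPII genes passed, while with the authors' values 1 passed as lower.

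**Figure D4:**
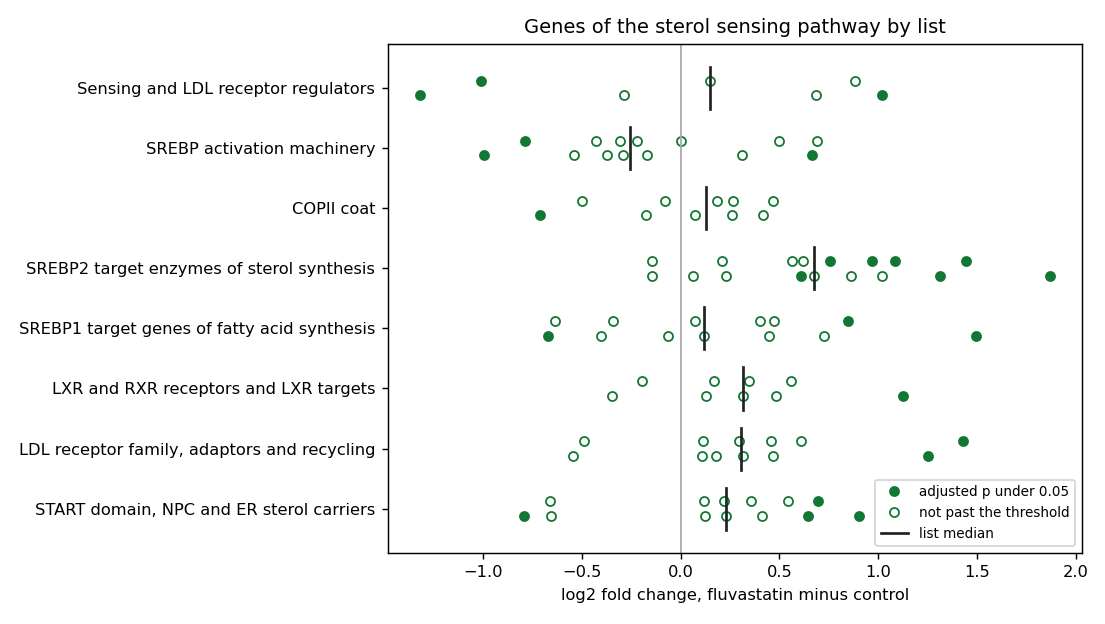
Log2 fold change of each tested gene, fluvastatin minus control, for the members (top row) and the 7 lists of genes around them; filled points passed an adjusted p of 0.05 and the bar is the list median. The sterol synthesis enzymes have a median of 0.67, and the members spread from -1.32 to 1.02.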

How the data were processed

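The deposited table holds 1 intensity per probe and sample with a detection p-value beside it, per the file headers, and its values show no background subtraction or normalization. The authors' second table holds log2 values normalized between arrays (the largest gap between columns at equal rank was 0.0166); its method is not given in the sources used here beyond R 3.1.0, which comes from the submitters' processing notes. The deposited p-values served as the detection filter. Groups came from the sample titles, because the treatment protocol has the same wording for both groups.

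Control replicate 2 was left out (its intensities equal the mean of the other controls to within 1e-06). The other 4 arrays went through neqc (limma 3.58.1, R 4.3.3: normexp background from detection p, offset of 16, quantile normalization, log2). The 21986 probes detected (p under 0.05) on 2 or more arrays were kept, and lmFit and eBayes compared the groups, two-sided, with Benjamini-Hochberg adjustment over all probes kept. The fit had 2 residual and 3.72 prior degrees of freedom, and the number of arrays limits the precision. A gene is represented by its brightest tested probe. Symbols came from the platform annotation (30113 probes with 1 symbol, 8 with several, 17110 with none), checked by gene identifier against RefSeq (GRCh38.p14). The steps were tested on simulated data with far fewer changed probes than were called here. Changes of 1 log2 unit or less were mostly missed there, so a probe that did not pass may still have changed. The members and lists were chosen with earlier results of these data known. Named genes are all members, up to 4 genes per list with the smallest p, genes completing a count of 5 or fewer, and the 3 nearest profiles of each changed member; MBTPS1, MBTPS2, FASN, FDPS, ACAT2, ABCA1, ABCG1, NPC1 and IFT20 were chosen after their values were seen. Alternatives changed the columns used, the values, background correction, offset, scaling, filter, variance prior, probe summary and arrays.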

Additional observations from a re-analysis of the deposited data

How the results depend on the processing

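The 3 member genes past the threshold became 6 with all 5 deposited columns, a fit in which control replicate 2, itself the average of controls 1 and 3, enters as a separate sample, and 5 with the authors' processed values, with no background correction, a neqc offset of 50, median scaling or an intensity trend in the prior variance, and 0 to 4 when 1 array was left out. INSIG2 and the brighter SREBF1 probe each passed in 7 of 12 alternatives and the second TMEM97 probe (ILMN_1753890) in 8 of 12, always higher with fluvastatin, the fit with all 5 columns being 1 of them each time. With the mean of all kept probes of a gene, 2 member genes, INSIG1 and SREBF1, were higher and 1, MYLIP, lower. The 3722 probes past the threshold became 8991 with all 5 columns and 256 (without control replicate 3) to 7238 (without fluvastatin replicate 2) leaving out 1 array, where the lone array of a group is assumed to vary like the other group. The 21 genes past the threshold over all pathway lists became 53 with all 5 columns, 36 with the authors' values, 35 with each of no background correction, the larger offset and the variance trend, and 1 to 38 leaving out 1 array. With median scaling 77.7% of the called probes were higher, against 51.0% as reported, and the median of all tested probes shifted to 0.19. Relative to that shift INSIG1 was at 1.01, MYLIP at -1.24 and the TMEM97 probes at -1.02 and 0.68. SREBF2 ranged from -0.061 (without control replicate 1, reversed) to 0.38 (without control replicate 3) and passed in 0 of 11 alternatives. No other member probe changed direction in any alternative run. The cause was not tested. No paired analysis was possible because the independent arrays of the 2 groups share 1 replicate number. Signal over background limits STARD4, which was detected on 1 of 4 arrays.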

Other observations

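Probes of 1 gene differed in sign in 931 of the 3412 genes that had several tested probes (27.3%). TMEM97 is counted there. Where 2 or more probes of a gene passed, the signs differed in 5 of 404 genes (1.24%), which do not include TMEM97, since its second probe missed the threshold.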
